A study of Drosophila melanogaster with 8 samples.

Results

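The genes described here encode precursors of neuropeptides and peptide hormones in heads of Drosophila melanogaster. A list of 35 such genes was looked up by gene name in the authors' TPM table, and the transcripts of each gene were summed in each library. The table held 34 of the 35 genes, with 60 transcripts, among 13656 genes in all. Burs, which encodes a subunit of the hormone bursicon, was not found and is not analysed here. Only the 29 members that averaged 1 TPM or more were tested. TPM (a transcript-level unit) is a length-normalized share of a library, so levels of different genes can be set side by side.

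Heads came from females aged 5 days in 4 genotypes, each with a transgene under the pan-neuronal driver Elav. PR36 flies made a proline-arginine dipeptide repeat of 36 units. (G4C2)36 flies carried 36 units of GGGGCC, the intronic repeat of C9orf72 whose expansion causes forms of frontotemporal dementia and of amyotrophic lateral sclerosis. UPF1 RNAi flies had a hairpin against Upf1, a helicase of nonsense-mediated mRNA decay. PA36 flies made a proline-alanine repeat and are the control. Values were used from 2 libraries each of PR36, (G4C2)36 and PA36 and from 1 library of UPF1 RNAi. Per the labels, each genotype was represented by 40 heads in total. No label states that replicates came from separate cultures, so p-values measure the spread between these libraries, which may be technical.

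Peptide precursors are made by small sets of neurons or endocrine cells, cleaved by prohormone convertases such as amon, amidated at their ends by Phm and Pal2, and stored in dense-core vesicles. Released peptides act mostly on G protein-coupled receptors, on nearby neurons or, through the hemolymph, on gut, muscle, renal tubules and fat body. Many members are made by few cells of the head, so whole-head RNA reports on a small population. In bulk RNA, fewer cells of a type and less RNA per cell cannot be told apart.

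The libraries carried neuronal RNA in every genotype: the summed level of 10 neuron markers was 1948 and 2014 TPM in PR36, 1785 and 1910 in (G4C2)36, 1803 in UPF1 RNAi, and 1464 and 1873 in PA36. Markers of the thoracic nerve cord summed to between 3.65 and 5.20 TPM. The level of Upf1 itself was 18.6 and 19.6 TPM in PR36, 18.2 and 16.0 in (G4C2)36, 11.3 in UPF1 RNAi, and 10.3 and 19.1 in PA36, so the UPF1 RNAi library lay between the PA36 libraries and a fall of Upf1 was not visible there. Replicate 1 of PR36 and replicate 1 of PA36 stood apart in heat shock transcripts, which summed to 6760 and 5286 TPM there and to between 87.3 and 504 TPM in the other libraries. An exact 0 can be a failed estimate in such a table. In all, 180 of 9287 tested genes (1.94%) were at 0 in at least 1 library while reaching 5 TPM in another.

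Levels of the members spanned several orders of magnitude, and Nplp2 and Nplp3 dominated. Nplp2 ranged from 7001 to 11297 TPM and Nplp3 from 924 to 5735 TPM over the 7 libraries. Together they made up 80.5% to 92.3% of the summed TPM of all members. The neuropeptides of known function followed, led by Ms with a median of 214 TPM, Pdf with 145 TPM, sNPF with 104 TPM and Dsk with 104 TPM. In that order, Nplp2 and Nplp3 did not overlap, nor did Nplp3 and Ms, or CCHa1 and CCAP. All other neighbours overlapped over the libraries. Below 1 TPM on average were amn, ETH, RYa, Akh and Pburs.

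**Figure D1:**
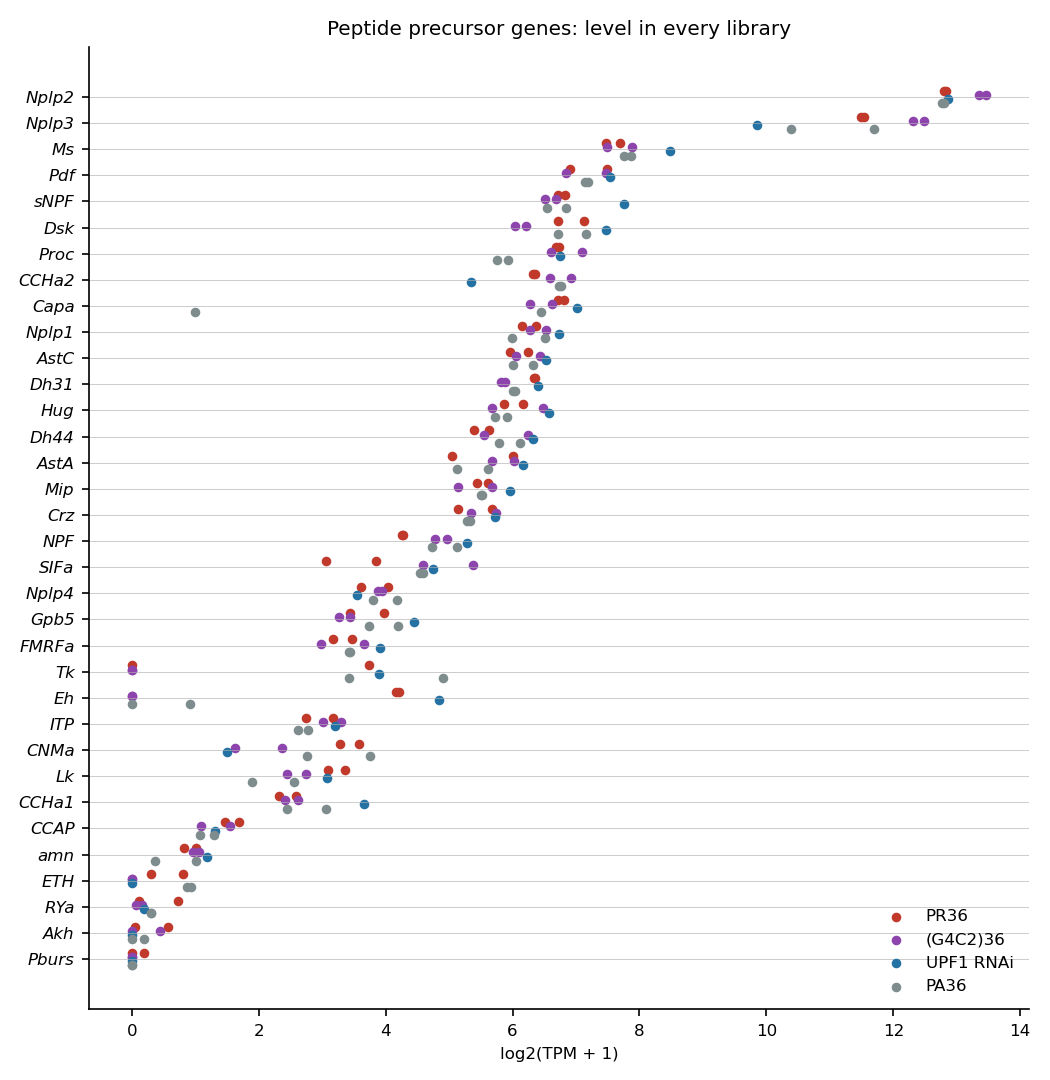
Level of each of the 34 members in each of the 7 libraries, as log2(TPM + 1), ordered by mean level from top to bottom, with 1 point per library coloured by genotype. Nplp2 lies at 7001 to 11297 TPM and Pburs at 0 to 0.146 TPM, and most members keep a narrow range while Capa, Tk and Eh have libraries far from the others.

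Against PA36, few members passed the test across all genes. By limma with Benjamini-Hochberg adjustment over 9287 genes, 1 of 29 members (Eh) was higher in PR36, where 0.108% of all tested genes were, and 0 were lower, where 0.0861% of all genes were. In (G4C2)36, 0 members were called in either direction, where 0.258% of all genes were higher and 0.129% lower. Without adjustment, p was under 0.05 in (G4C2)36 for 6 of 29 members (CNMa, Dsk, Nplp2, Nplp3, Proc and Tk), against 6.75% of all genes. It was for 5 of 29 in PR36 (Eh, Lk, NPF, Proc and SIFa), against 3.39%. In UPF1 RNAi, Eh was again the 1 member called higher, where 0.215% of all genes were, and 0 members were lower, where 0.409% of all genes were. Here 8 of 29 members had an unadjusted p under 0.05 (CCHa1, CCHa2, CNMa, Eh, Ms, Nplp3, Proc and sNPF), against 6.4% of all genes. These comparisons share the PA36 libraries, and Eh entered the test only through its levels in PR36 and UPF1 RNAi.

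The members' median log2 fold change was 0.03 in PR36 against PA36, beside 0.13 for all genes tested. It was 0.00 in (G4C2)36, beside 0.13, and 0.45 in UPF1 RNAi, beside 0.10. Relative to the median of all genes, these are -0.10, -0.14 and 0.35. Every library lay above both PA36 libraries for 7 of 29 members in PR36, where this held for 27.0% of all genes. It did for 7 of 29 in (G4C2)36, against 24.2%, and for 24 of 29 in UPF1 RNAi, against 45.0%. Every library lay below both PA36 libraries for 5 members in PR36 (6.72% of all genes), 5 in (G4C2)36 (8.21%) and 4 in UPF1 RNAi (25.9%).

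**Figure D2:**
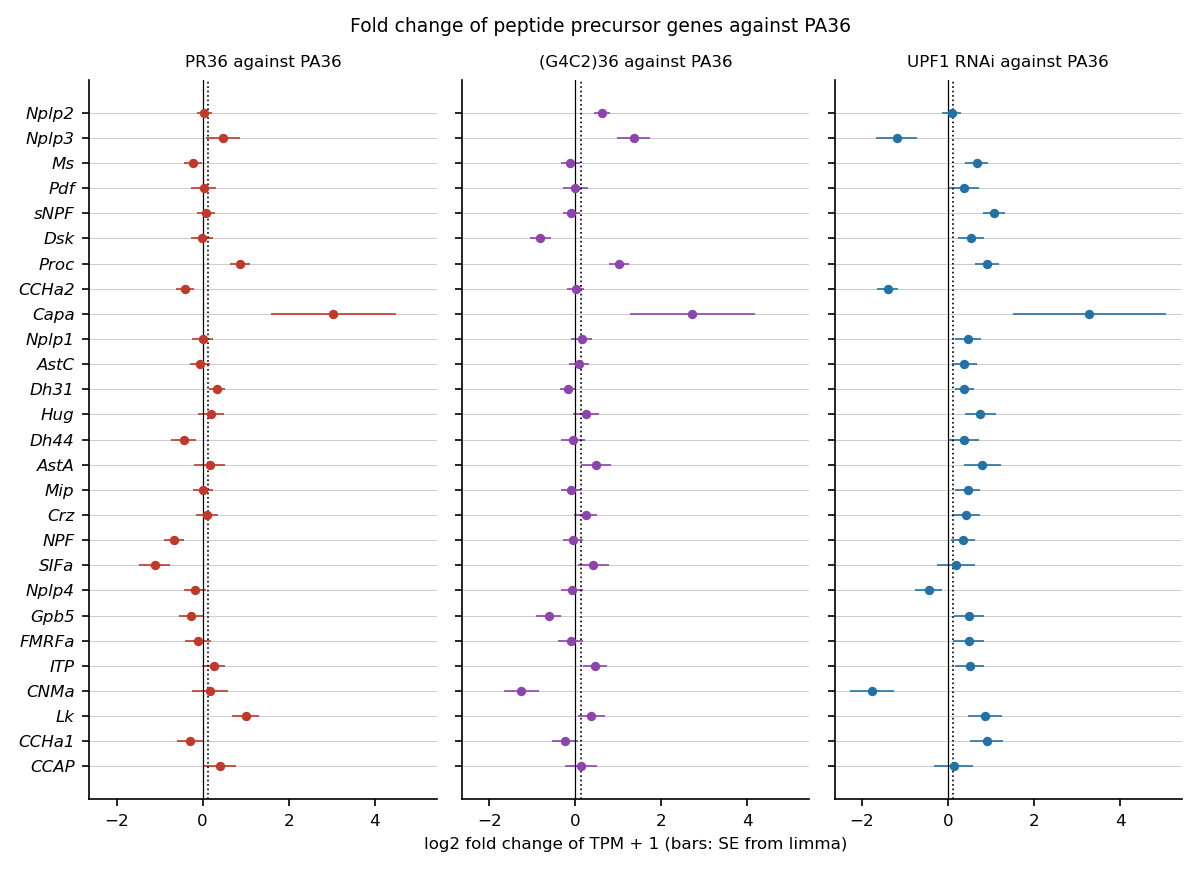
Log2 fold change of TPM + 1 against PA36 for 27 tested members in PR36, (G4C2)36 and UPF1 RNAi, with bars for the standard error from limma and a dotted line at the median of all tested genes. Eh and Tk are left out because a library of each is listed at 0. Most points of the UPF1 RNAi panel lie right of 0, while CNMa, CCHa2 and Nplp3 lie at -1.76, -1.40 and -1.19.

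Peptides of brain circuits formed the largest group, with 15 members, of which 13 were tested and 0 called against PA36 in any genotype. sNPF (chromosome arm 2L, 20027915 to 20056373, plus strand) encodes short neuropeptide F, which acts in feeding, sleep and olfaction. It stood at 104 and 112 TPM in PR36, 90.2 and 102 in (G4C2)36, 216 in UPF1 RNAi, and 91.9 and 114 in PA36. The UPF1 RNAi library was above all others, and the repeat genotypes overlapped with PA36. Its log2 fold change in UPF1 RNAi was 1.07 ± 0.25 (SE), with an adjusted p of 0.245.

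Pdf, the output peptide of clock neurons, had 119 and 178 TPM in PR36, 177 and 114 in (G4C2)36, 185 in UPF1 RNAi, and 140.5 and 145 in PA36. The spread within PR36 and within (G4C2)36 was wider than any difference between genotypes. Dsk, which encodes the cholecystokinin-like satiety peptides drosulfakinins, had 104 and 138 TPM in PR36, 73.2 and 64.4 in (G4C2)36, 177 in UPF1 RNAi, and 104 and 142 in PA36. Both (G4C2)36 libraries were below every other library and the UPF1 RNAi library above every other. The log2 fold change of Dsk was -0.82 ± 0.25 in (G4C2)36 against PA36 (adjusted p = 0.517) and -1.36 ± 0.30 in (G4C2)36 against UPF1 RNAi (adjusted p = 0.178).

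Dh31, a calcitonin-like peptide that acts on sleep and the gut, had 79.7 and 81.2 TPM in PR36, 55.2 and 57.9 in (G4C2)36, 83.6 in UPF1 RNAi, and 63.2 and 65.0 in PA36. The PR36 and UPF1 RNAi libraries lay above PA36 and the (G4C2)36 libraries below it. Log2 fold changes against PA36 were 0.32 ± 0.19 for PR36, -0.18 ± 0.19 for (G4C2)36 and 0.38 ± 0.23 for UPF1 RNAi, with adjusted p of 0.917 or more in each. The gene Bace overlaps Dh31 on the same strand.

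SIFa, made by a handful of brain neurons that act on courtship, sleep and appetite, had 7.30 and 13.4 TPM in PR36, 23.0 and 40.4 in (G4C2)36, 25.8 in UPF1 RNAi, and 23.0 and 22.3 in PA36. Both PR36 libraries were below all others. The log2 fold change was -1.12 ± 0.36 in PR36 against PA36 (adjusted p = 0.996) and -1.53 ± 0.36 in PR36 against (G4C2)36 (adjusted p = 0.364). NPF, the neuropeptide F of feeding and arousal circuits, was also lowest in PR36, with 18.2 and 18.3 TPM there, 26.4 and 30.3 TPM in (G4C2)36, 38.0 TPM in UPF1 RNAi, and 33.9 and 25.6 TPM in PA36. The PR36 libraries did not overlap with PA36, at a log2 fold change of -0.66 ± 0.23 (adjusted p = 0.996).

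Lk, which encodes leucokinin, a peptide of water balance and sleep, had 7.56 and 9.23 TPM in PR36, 5.67 and 4.47 in (G4C2)36, 7.47 in UPF1 RNAi, and 2.72 and 4.87 in PA36. PR36 lay above PA36 by 1.00 ± 0.32 on the log2 scale (adjusted p = 0.996), and (G4C2)36 overlapped with PA36. CNMa (3L, 1850915 to 1855591, minus strand) encodes CNMamide and had 10.9 and 8.76 TPM in PR36, 4.15 and 2.1 in (G4C2)36, 1.81 in UPF1 RNAi, and 5.74 and 12.4 in PA36. The (G4C2)36 and UPF1 RNAi libraries lay below all PR36 and PA36 libraries. The log2 fold changes of -1.25 ± 0.42 for (G4C2)36 (adjusted p = 0.568) and -1.76 ± 0.51 for UPF1 RNAi (0.419) did not pass the test. Without replicate 1 of PR36 and of PA36 together, which keeps the higher PA36 library, these fold changes were -1.75 and -2.26. Without replicate 2 of PA36 they were smaller, at -0.75 and -1.26.

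Tk (3R, 11994175 to 12005473, minus strand) encodes tachykinins, peptides of aggression and of gut and brain signalling. It was listed at 0 and 12.4 TPM in PR36, at 0 in both (G4C2)36 libraries, at 13.9 TPM in UPF1 RNAi, and at 28.9 and 9.76 TPM in PA36. Within PR36 the libraries disagreed, and in (G4C2)36 both were below PA36. The difference between (G4C2)36 and PA36 did not pass (adjusted p = 0.36). It stayed at -4.16 on the log2 scale without PR36 replicate 1 or without PR36 replicate 2, as neither library enters it. Those fits lose the disagreement within PR36 from the shared spread, and the 0 in both (G4C2)36 libraries adds none. Their p-values are therefore not given. Ect3 overlaps Tk on the opposite strand, and use of strand in counting is not given in the sources used here. Genes on the opposite strand also overlap SIFa, Lk, Dsk, Dh44, Hug, ITP, CCAP, amn and ETH.

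CCHa1, which encodes CCHamide-1, stood at 11.6 TPM in UPF1 RNAi and at 4.01 to 7.34 TPM in the other libraries. The remaining tested members of the group were Dh44, a corticotropin-releasing factor-like diuretic hormone, Hug, the precursor of hugin, and AstA, the precursor of allatostatin A. Their ranges over all libraries were 41.0 to 78.9 TPM, 50.1 to 93.9 TPM and 32.2 to 70.5 TPM, and each was highest in UPF1 RNAi. Both PR36 libraries of Dh44 lay below PA36, and both (G4C2)36 libraries of AstA lay above it. RYa (0.0464 to 0.656 TPM) and the memory gene amn (0.284 to 1.27 TPM) were too low to be tested.

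Modulators of muscle and glands, with 5 members, were all tested and 0 were called. Ms, the precursor of myosuppressin, which relaxes visceral muscle, had 177 and 206 TPM in PR36, 236 and 179 in (G4C2)36, 355 in UPF1 RNAi, and 214 and 233 in PA36. The UPF1 RNAi library was above all others, at a log2 fold change of 0.66 ± 0.27 (adjusted p = 0.74), and PR36 lay below PA36.

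Proc (2L, 7864642 to 7871432, minus strand) encodes proctolin, a peptide that stimulates muscle contraction. Its level was 105 and 102 TPM in PR36, 136 and 96.5 in (G4C2)36, 106 in UPF1 RNAi, and 59.6 and 53.0 in PA36. All 5 libraries of the other genotypes lay above both PA36 libraries. Log2 fold changes of Proc were 0.87 ± 0.23 for PR36 (adjusted p = 0.662), 1.02 ± 0.23 for (G4C2)36 (0.246) and 0.90 ± 0.28 for UPF1 RNAi (0.496). None of these passed, and the 3 values share the PA36 libraries.

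AstC, the precursor of allatostatin C, ranged from 61.5 to 74.8 TPM in PR36, 65.3 to 85.7 TPM in (G4C2)36, 91.7 TPM in UPF1 RNAi, and 63.2 to 78.8 TPM in PA36, so the repeat genotypes overlapped with PA36. Mip (34.3 to 61.4 TPM over all libraries), the myoinhibiting peptide precursor, and FMRFa (6.87 to 14.0 TPM), which encodes peptides that strengthen muscle contraction, did likewise. All 5 members of the group were higher in UPF1 RNAi than in both PA36 libraries, which held for 45.0% of all genes.

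**Figure D3:**
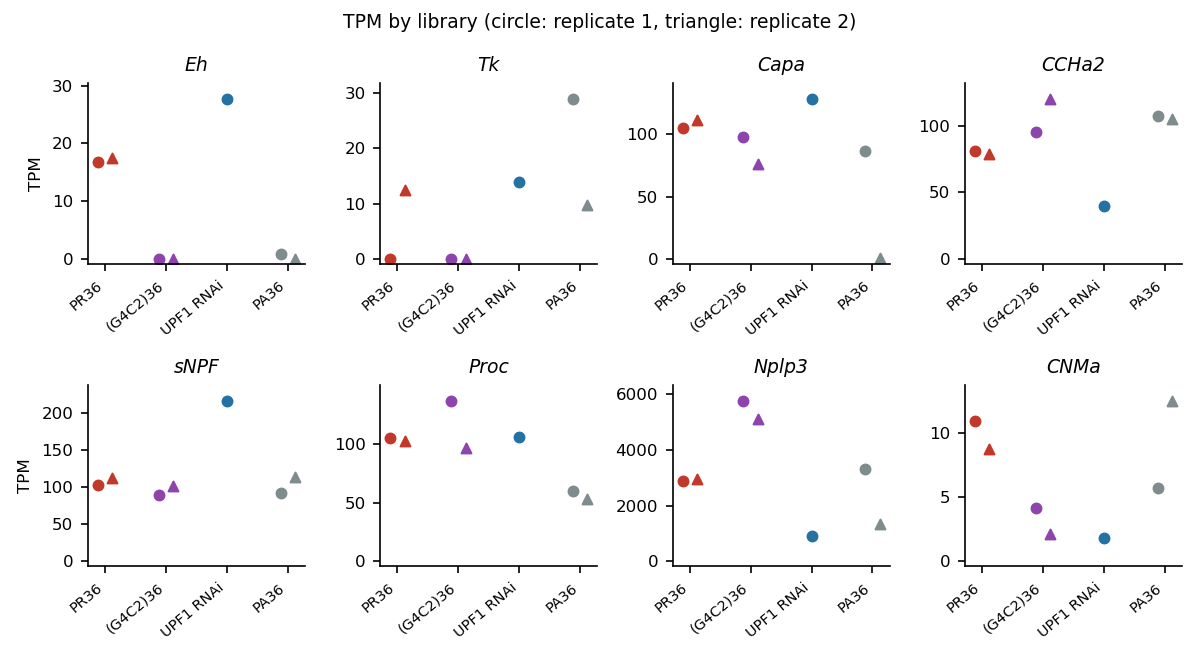
TPM of Eh, Tk, Capa, CCHa2, sNPF, Proc, Nplp3 and CNMa in each library, with circles for replicate 1 and triangles for replicate 2 and a separate axis for each gene. Eh is at 16.8 TPM or more in PR36 and UPF1 RNAi and under 1 TPM elsewhere, and Capa is at 1.00 TPM in replicate 2 of PA36 alone.

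Among hormones of metabolism and water balance, 5 of 6 members were tested and 0 were called. CCHa2 (3R, 13389059 to 13395197, minus strand) encodes CCHamide-2, a nutrient-dependent peptide that promotes insulin-like peptide production in larvae. CCHa2 had 80.7 and 78.6 TPM in PR36, 95.2 and 120.1 in (G4C2)36, 39.6 in UPF1 RNAi, and 108 and 105 in PA36. The UPF1 RNAi library was the lowest of all, and PR36 lay below PA36. The log2 fold change was -1.40 ± 0.25 in UPF1 RNAi against PA36 (adjusted p = 0.0878) and 1.41 ± 0.25 in (G4C2)36 against UPF1 RNAi (adjusted p = 0.0843). With limma's robust option these had adjusted p of 0.0375 and 0.0331.

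Capa (3R, 29912991 to 29914346, minus strand) encodes peptides that act on the renal tubules. Its level was 104 and 111 TPM in PR36, 97.5 and 76.0 in (G4C2)36, 128 in UPF1 RNAi, and 86.7 and 1.00 in PA36. Only replicate 2 of PA36 was low. It stood more than 2 log2 units below every other library in 17 of 9287 genes, and Capa was the only member among them. Without that library Capa differed from PA36 by 0.31, -0.01 and 0.56 on the log2 scale across PR36, (G4C2)36 and UPF1 RNAi, and without replicate 1 of PA36 by 5.76, 5.44 and 6.01 (adjusted p = 0.000411, 0.000318 and 0.000836).

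Crz, the precursor of corazonin, a stress and metabolic peptide, ranged from 34.1 to 52.4 TPM, and both (G4C2)36 libraries lay above PA36. Those of ITP, the ion transport peptide (5.17 to 8.79 TPM), did as well. Gpb5, a glycoprotein hormone subunit (8.6 to 20.9 TPM), was lower in (G4C2)36, at 9.83 and 8.6 TPM, against 12.3 and 17.4 TPM in PA36, with a log2 fold change of -0.62 ± 0.28 (adjusted p = 0.763). Akh, the adipokinetic hormone of the corpora cardiaca, was at 0.0328 and 0.479 TPM in PR36, 0.366 TPM and 0 in (G4C2)36, 0 in UPF1 RNAi, and 0 and 0.146 TPM in PA36. Its receptor AkhR, by contrast, was between 62.2 and 111 TPM.

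Of the 5 peptides that control ecdysis, the shedding of the old cuticle, 2 were tested, and Eh was called. Eh (3R, 17446642 to 17448858, minus strand) encodes eclosion hormone, which in moulting insects acts with ecdysis triggering hormone. It had 16.8 and 17.5 TPM in PR36, 0 in both (G4C2)36 libraries, 27.7 TPM in UPF1 RNAi, and 0.893 TPM and 0 in PA36. The libraries fell into separate ranges, with PR36 and UPF1 RNAi high and (G4C2)36 and PA36 low. The replicates of each genotype lay on 1 side. Eh met the mean of 1 TPM needed for testing only through PR36 and UPF1 RNAi, where it was high. The 0 in both (G4C2)36 libraries adds no spread to its test. PR36 exceeded PA36 in Eh with an adjusted p of 0.0175, and UPF1 RNAi exceeded it with an adjusted p of 0.0125. Eh was also higher in PR36 than in (G4C2)36 (adjusted p = 0.00672; 0.108% of all genes were called in that direction) and lower in (G4C2)36 than in UPF1 RNAi (adjusted p = 0.00673; 0.108% of all genes). No other member was called in these comparisons, where 0.129% of all genes were lower in PR36 than in (G4C2)36 and 0.474% higher in (G4C2)36 than in UPF1 RNAi. The difference between PR36 and UPF1 RNAi, -0.66 ± 0.46 on the log2 scale, did not pass (adjusted p = 1).

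The Eh call in PR36 was lost without (G4C2)36 replicate 1 (adjusted p = 0.0752) or replicate 2 (0.0842), although neither library enters that difference, and with a pseudocount of 0.1 (0.32). It was also lost with median-of-ratios or quantile scaling, with no filter and with only the genotypes compared (0.0573 to 0.121). That in UPF1 RNAi was lost without (G4C2)36 replicate 2 (0.0515), with no filter (0.0513), with a pseudocount of 0.1 (0.167) and with only the genotypes compared (0.19), and those in the comparisons with (G4C2)36 without either library of (G4C2)36 (adjusted p of 0.0569 to 0.0723). PR36 replicate 1 and PA36 replicate 1 were high in heat shock transcripts. Without them, Eh stood at 17.5 TPM in PR36 and at 0 in PA36. That fit takes its spread from the (G4C2)36 libraries alone, both at 0 for Eh, so its p-value is not given. Genes at 0 in both (G4C2)36 libraries and at 5 TPM or more elsewhere numbered 23 of 9287 (0.248%), and Eh and Tk are among these. CCAP, the crustacean cardioactive peptide gene, was at 2.22 and 1.76 TPM in PR36, 1.92 and 1.13 in (G4C2)36, 1.47 in UPF1 RNAi, and 1.44 and 1.1 in PA36, so PR36 lay above PA36 by 0.40 ± 0.37 (adjusted p = 0.996). ETH, the ecdysis triggering hormone gene, had 0.235 and 0.751 TPM in PR36, was listed at 0 in (G4C2)36 and UPF1 RNAi, and had 0.829 and 0.904 TPM in PA36. Pburs, a bursicon subunit, was at 0.146 TPM in replicate 2 of PR36 and at 0 elsewhere.

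The neuropeptide-like precursors, 4 members and all tested, had 0 calls. Nplp2 (3L, 13356376 to 13357223, plus strand) had 7142 and 7325 TPM in PR36, 11297 and 10425 in (G4C2)36, 7449 in UPF1 RNAi, and 7001 and 7091 in PA36. Both (G4C2)36 libraries were above all others, by 0.62 ± 0.18 on the log2 scale relative to PA36 (adjusted p = 0.453). Nplp3 (3L, 16318024 to 16318690, plus strand) had 2872 and 2966 TPM in PR36, 5735 and 5099 in (G4C2)36, 924 in UPF1 RNAi, and 3307 and 1345 in PA36. It was highest in (G4C2)36 and lowest in UPF1 RNAi, while PR36 lay between the PA36 libraries.

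The log2 fold change of Nplp3 was 1.36 ± 0.39 for (G4C2)36 (adjusted p = 0.446) and -1.19 ± 0.47 for UPF1 RNAi (0.74), each against PA36. Between (G4C2)36 and UPF1 RNAi it was 2.55 ± 0.47 (adjusted p = 0.0952). The difference between (G4C2)36 and PA36 depended on the PA36 library kept. It was 2.01 without replicate 1 of PA36 and 0.71 without replicate 2. That between (G4C2)36 and UPF1 RNAi stayed at 2.55 without any 1 library of PR36 or PA36, as none of these enters it. Markers of muscle were also higher in (G4C2)36: all 8 tested markers had a positive log2 fold change, beside a median of 0.13 for all genes. Of these markers, 7 of 8 lay above both PA36 libraries, against 24.2% of all genes. Their sum was 3650 and 3127 TPM in (G4C2)36, against 2191 and 1569 TPM in PA36. Fat body markers summed to 74151 and 127757 TPM in (G4C2)36, against 76015 and 38957 TPM in PA36. Most of each sum came from Yp1, Yp2 and Yp3. In UPF1 RNAi the sums were 1652 TPM for muscle and 48859 TPM for fat body, each between those of the PA36 libraries. Single fat body markers went opposite ways there. The level of apolpp was 1919 TPM, against 949 and 943 in PA36, and that of Lsp2 was 0.931 TPM, against 26.4 and 25.9. The part of these cells in the values of Nplp2 and Nplp3 was not tested.

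Nplp1, the precursor of peptides found in clock neurons, had 70.1 and 81.4 TPM in PR36, 91.6 and 76.5 in (G4C2)36, 105 in UPF1 RNAi, and 62.6 and 90.6 in PA36, with overlap between the repeat genotypes and PA36. Nplp4 was between 10.6 and 17.2 TPM and was lowest in UPF1 RNAi.

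The UPF1 RNAi library had the highest level of all 7 libraries for 17 of 29 members (58.6%), which held for 15.1% of all tested genes. The libraries differed in listed TPM, from 712972 in UPF1 RNAi to 877933 in replicate 1 of (G4C2)36. The latter was highest for 42.9% of all tested genes and for 5 of 29 members. This count was not repeated with scaling. Members other than Nplp2 and Nplp3 summed to 1330 and 1565 TPM in PR36, 1580 and 1292 in (G4C2)36, 2026 in UPF1 RNAi, and 1379 and 1403 in PA36. Higher than both PA36 libraries were 11 of 13 brain circuit peptides, 5 of 5 muscle and gland modulators, 4 of 5 metabolic hormones, 2 of 2 ecdysis peptides and 2 of 4 neuropeptide-like precursors, where this held for 45.0% of all genes. The members not higher were Tk, which lay between the PA36 libraries, and CCHa2, CNMa, Nplp3 and Nplp4, which lay below both.

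With median-of-ratios or quantile scaling 20 of 29 members were above both PA36 libraries, against 36.9% and 37.1% of all genes. UPF1 RNAi was also above both libraries of PR36 for 23 members, where this held for 31.3% of all genes, and of (G4C2)36 for 19 members, where this held for 25.3%. In PR36 against UPF1 RNAi 0 members were called by limma (0.345% of all genes higher, 0.0861% lower), and 9 of 29 had an unadjusted p under 0.05, against 6.13% of all genes. This genotype has 1 library, so its own spread is unknown.

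Markers of peptidergic neurons were measured beside these members. Of 7 listed, 6 were tested, and all 6 were higher in UPF1 RNAi than in both PA36 libraries, against 45.0% of all genes. All 7 are also in the list of processing and vesicle genes below, so the 2 lists are not independent. The 7 markers summed to 1121 and 1392 TPM in PR36, 1526 and 1004 in (G4C2)36, 1740.3 in UPF1 RNAi, and 1000.2 and 1201 in PA36. The transcription factor gene dimm was the low one, at 1.20 TPM in UPF1 RNAi and at 0 and 0.678 TPM in PA36. Of general neuron markers 6 of 10 were above both PA36 libraries, of glial markers 6 of 9 and of photoreceptor markers 7 of 10. Fewer were for head fat body, with 2 of 8, muscle, with 3 of 8, and hemocytes, with 0 of 6, of which 4 lay below both PA36 libraries (25.9% of all genes did). The part of a different mix of cells in the members' levels was not tested.

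**Figure D4:**
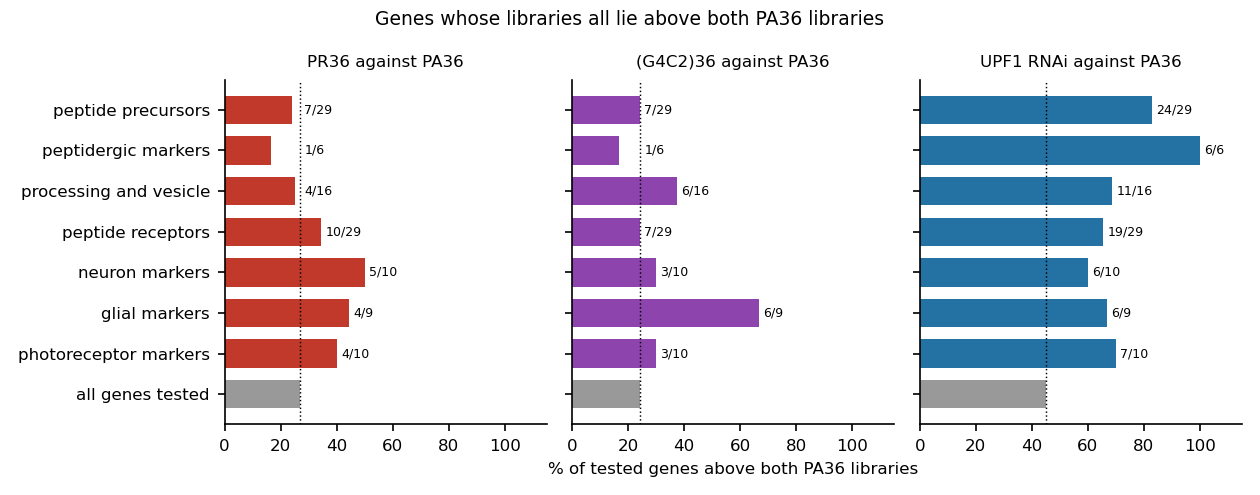
Share of tested genes whose every library lies above both PA36 libraries, in PR36, (G4C2)36 and UPF1 RNAi, for the peptide precursors, companion and marker lists (counts beside the bars) and all tested genes (grey bar, dotted line). The precursors sit at 7, 7 and 24 of 29, against 27.0%, 24.2% and 45.0% of all genes. All peptidergic markers are also in the processing and vesicle list.

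Several transcripts were listed for 16 members, and 42 member transcripts were tested singly. In PR36 against PA36 0 were called (0.317% of all transcripts tested; 7 of 42 had an unadjusted p under 0.05 in limma, against 4.11% of all transcripts). In (G4C2)36 0 were called (0.298%), and 6 of 42 had such a p, against 6.81%. In UPF1 RNAi, 1 was called (0.639% of all transcripts), Eh-RA, with an adjusted p of 0.0346, and 8 of 42 had an unadjusted p under 0.05, against 6.82%. Eh-RA had 8.80 and 10.6 TPM in PR36, 0 in both (G4C2)36 libraries, 18.6 TPM in UPF1 RNAi, and 0.337 TPM and 0 in PA36. Eh-RB had 8.02 and 6.86 TPM in PR36, 0 in both (G4C2)36 libraries, 9.11 TPM in UPF1 RNAi, and 0.556 TPM and 0 in PA36. Both transcripts of Eh were therefore high in the same 3 libraries. Like the gene, they met the mean of 1 TPM needed for testing only through PR36 and UPF1 RNAi. Their 0 in both (G4C2)36 libraries adds no spread to the test.

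CCHa2-RB, the main transcript of CCHa2, had 75.9 and 70.3 TPM in PR36, 85.8 and 114 in (G4C2)36, 28.2 in UPF1 RNAi, and 98.3 and 97.6 in PA36. The shorter CCHa2-RA was highest in UPF1 RNAi at 11.4 TPM, against 3.52 to 7.92 TPM in the other libraries. CCHa2-RB therefore made up 71.1% of the gene in UPF1 RNAi and 89.4% to 94.9% elsewhere. The log2 fold change of CCHa2-RB in UPF1 RNAi against PA36 was -1.76 ± 0.24 (adjusted p = 0.0765).

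In Tk, all of the level in replicate 1 of PA36 was assigned to Tk-RA (28.9 TPM), and all of that in replicate 2 of PA36, in replicate 2 of PR36 and in UPF1 RNAi to Tk-RB. The libraries of PA36 thus differed in transcript as well as in level. CCAP-RA made up between 0.303% and 83.6% of CCAP, with replicates of PR36 at 0.303% and 62.2%, so this split did not follow genotype. The split had a narrower range in Dh31, where Dh31-RC made up 76.1% to 83.7%, and in Nplp2, where Nplp2-RC made up 86.7% to 95.2%. It had a wider one in ITP, with ITP-RD at 49.6% to 75.3%, and in Gpb5, with Gpb5-RC at 21.5% to 40.1%.

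**Figure D5:**
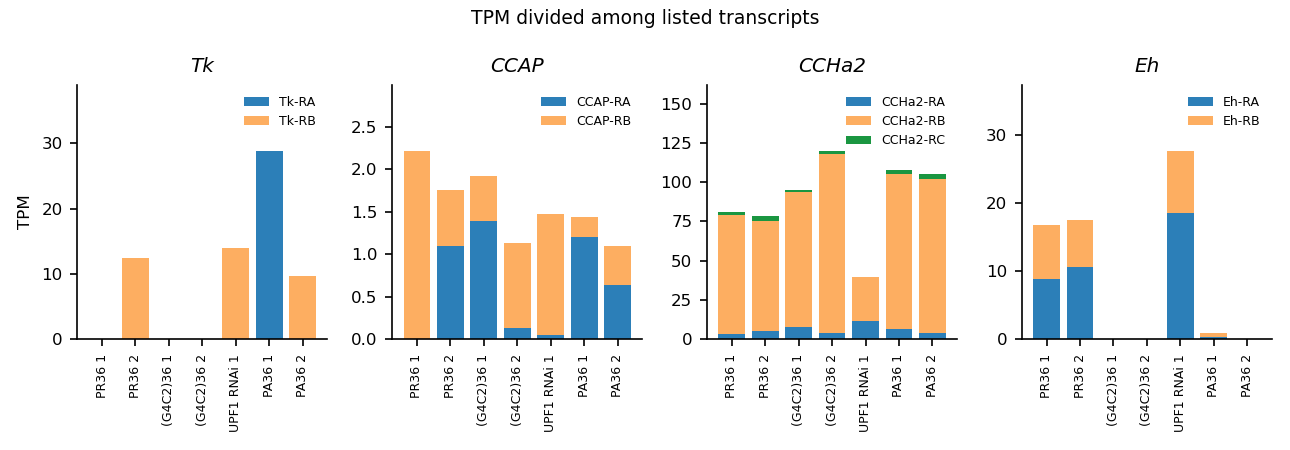
TPM of the listed transcripts of Tk, CCAP, CCHa2 and Eh in each library, stacked so that a bar's height is the gene's level. Tk is Tk-RA in replicate 1 of PA36 and Tk-RB in every other library above 0, and CCHa2-RB is at 28.2 TPM in UPF1 RNAi.

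Receptors for the peptides were measured beside them. Of 37 listed, 34 were in the table and 29 tested, and 0 were called in any of the 6 comparisons by limma. At an unadjusted p under 0.05 were 0 for PR36 (3.39% of all genes), 1 for (G4C2)36 (6.75%) and 1 for UPF1 RNAi (6.4%), each against PA36. Their median log2 fold changes against PA36 were 0.17, 0.17 and 0.22, beside 0.13, 0.13 and 0.10 for all genes. Every library lay above both PA36 libraries for 10 of 29 receptors of PR36 (27.0% of all genes), 7 of (G4C2)36 (24.2%) and 19 of UPF1 RNAi (45.0%).

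After AkhR, the highest mean levels were those of Pdfr, the receptor of Pdf (14.2 to 20.1 TPM), Lgr1, a glycoprotein hormone receptor (9.33 to 13.04 TPM), Dh31-R (8.49 to 12.6 TPM), sNPF-R (7.85 to 12.5 TPM) and Proc-R (7.27 to 13.5 TPM). Dh44-R2, a receptor of Dh44, had 5.98 and 7.51 TPM in PR36, 9.32 and 6.96 in (G4C2)36, 9.16 in UPF1 RNAi, and 3.70 and 4.36 in PA36. It lay above PA36 in all 3 genotypes, by 1.02 ± 0.34 in UPF1 RNAi (adjusted p = 0.552). PK1-R, a pyrokinin receptor, had 0.339 and 1.47 TPM in PR36, 1.71 and 1.26 in (G4C2)36, 2.1 in UPF1 RNAi, and 0.295 and 0.223 in PA36, with a log2 fold change of 1.30 ± 0.56 in UPF1 RNAi (adjusted p = 0.789). The receptors ETHR and Lkr, at 4.72 and 2.59 TPM in UPF1 RNAi, were above both (G4C2)36 libraries there, where each had a library listed at 0 (adjusted p = 0.945 and 1). MsR1, a myosuppressin receptor, was listed at 0 in UPF1 RNAi and in replicate 2 of PA36, against 2.21 to 7.22 TPM in the other libraries.

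Genes that process the precursors or load and release dense-core vesicles numbered 17, of which 16 were tested and 0 called in any comparison. They include all 7 markers of peptidergic neurons. At an unadjusted p under 0.05 by limma were 2 in each of PR36, (G4C2)36 and UPF1 RNAi against PA36, beside the same 3.39%, 6.75% and 6.4% of all genes. The highest were IA-2 (256 to 532 TPM), Pal2 (262 to 429 TPM), the convertase chaperone 7B2 (251 to 404 TPM), Rab2 (213 to 268 TPM), Phm (181 to 232 TPM) and Syt4 (139.8 to 216 TPM). Cadps, which primes dense-core vesicles for release, had 110 and 105 TPM in PR36, 123 and 75.8 in (G4C2)36, 186 in UPF1 RNAi, and 57.8 and 66.5 in PA36. All 3 genotypes lay above PA36, and the log2 fold change in UPF1 RNAi was 1.57 ± 0.32 (adjusted p = 0.155). Sytalpha had 18.4 and 48.0 TPM in the PR36 libraries, against 13.5 and 14.7 TPM in those of PA36, a log2 fold change of 1.03 ± 0.41 (adjusted p = 0.996). The glutaminyl cyclase gene isoQC was lowest in UPF1 RNAi, at 3.66 TPM, against 7.35 to 9.84 TPM in the other libraries. The carboxypeptidase gene svr was highest in UPF1 RNAi, at 229 TPM, against 27.8 to 199 TPM elsewhere. The 5 tested peptidases that degrade peptides (Nep1 to Nep4 and Ance) were led by Nep4, at 35.5 to 51.7 TPM, and Nep3, at 26.7 to 49.7 TPM. They had 0 calls by limma in any comparison, and 0, 0 and 2 of them had an unadjusted p under 0.05 for PR36, for (G4C2)36 and for UPF1 RNAi (3.39%, 6.75% and 6.4% of all genes).

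Other peptide genes, outside the member list, numbered 14 and 9 were tested. Orcokinin was the 1 gene called, with 15.8 and 25.0 TPM in PR36, 80.5 and 47.9 in (G4C2)36, 150 in UPF1 RNAi, and 68.0 and 83.1 in PA36. The PR36 libraries were below all others. It was lower in PR36 than in UPF1 RNAi (log2 fold change -2.85 ± 0.40, limma adjusted p = 0.0424), where 0.0861% of all genes were called lower. Against PA36 the value in PR36 was -1.87 ± 0.33 (adjusted p = 0.191). Without (G4C2)36 replicate 1 the call was lost (adjusted p = 0.0775), as it was without (G4C2)36 replicate 2 (0.0811).

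Insulin-like peptide genes were present at stable or variable levels. Ilp2, the main insulin-like peptide of the brain, was between 139 and 166 TPM in all libraries. Ilp5 had 44.5 and 38.1 TPM in PR36, 64.7 and 96.5 in (G4C2)36, 35.7 in UPF1 RNAi, and 40.0 and 30.2 in PA36, so (G4C2)36 was above all others (log2 fold change 1.16 ± 0.27, adjusted p = 0.276). Ilp6, which the fat body makes, had 51.8 and 51.1 TPM in PR36, 53.4 and 68.3 in (G4C2)36, 14.9 in UPF1 RNAi, and 32.9 and 47.9 in PA36. UPF1 RNAi was below all others for Ilp6, with a log2 fold change of -1.36 ± 0.31 against PA36 (adjusted p = 0.231). Ilp3 was between 24.5 and 51.9 TPM and Trissin between 20.4 and 39.4 TPM.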

How the data were processed

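RNA from heads of 4 genotypes was sequenced by the authors. The submitters' processing notes name bcl2fastq, HISAT, HISAT2 2.1 and the BDGP6 build. What computed the TPM, and whether it used strand, is not given in the sources used here. For 26309 transcripts the authors deposited TPM. The table's header has 10 names for 11 cells a line. Read from the left, they leave 1 value column unnamed, which was not used, and UPF1 RNAi keeps 1 library; all assignments depend on that reading. TPM keep no depth, which is unknown.

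TPM were summed per gene (13656 genes). The 9287 genes that averaged 1 TPM or more entered a test by limma 3.58.1 (R 4.3.3) on log2(TPM + 1), with 1 coefficient per genotype, a variance trend and all 7 libraries, two-sided. Changes of low genes are understated on this scale. Adjusted p under 0.05 (Benjamini-Hochberg over all genes, per comparison) counts as called. The residual degrees of freedom were 3, so genotypes share 1 estimate of the spread and the lone UPF1 RNAi library is assumed to vary like the others. The 6 comparisons comprise 3 with PA36 and 3 between the other genotypes. The model was tested on simulated data with independent normal noise. No genotype was held at 0 there, so that test cannot decide on genes such as Eh and Tk. Values in every library are given for the 12 highest members, called members, those changed by at least 1 (log2) against PA36, and those listed at 0 in a genotype; from companion lists, called genes, the 6 highest and non-overlapping genes with such a change are named. Values of NPF, Gpb5, CCAP and dimm were chosen after they were seen. The members and lists were chosen with earlier results of these data known. Coordinates are 1-based, from the BDGP6 annotation of Ensembl release 115, which holds 99.4% of listed transcripts. Nplp2 was matched by symbol. Python 3.11.15, pandas 2.3.3, numpy 2.4.6 and matplotlib 3.10.9 were used for sums and figures.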

Additional observations from a re-analysis of the deposited data

Results flagged for a closer look

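Eh differed between genotypes that are otherwise each set against PA36. It was higher in PR36 than in (G4C2)36 (limma adjusted p = 0.00672) and lower in (G4C2)36 than in UPF1 RNAi (adjusted p = 0.00673). The values were 16.8 and 17.5 TPM in PR36, 0 in both (G4C2)36 libraries and 27.7 TPM in UPF1 RNAi. Eh entered the test only through its PR36 and UPF1 RNAi levels. Over the alternatives its adjusted p by limma rose to 0.102 in PR36 against (G4C2)36 and to 0.0716 in (G4C2)36 against UPF1 RNAi.

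Orcokinin, a peptide gene outside the member list, was lower in PR36 than in UPF1 RNAi (limma adjusted p = 0.0424). In that direction 0.0861% of all genes were called. With 15.8 and 25.0 TPM in PR36 and 150 TPM in UPF1 RNAi, all PR36 libraries lay below that of UPF1 RNAi. Over the alternatives its adjusted p rose to 0.139 at the highest (no filter).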

How the results depend on the processing

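Of the member results over all alternatives, 2809 stayed on their side of the threshold, 31 passed it newly and 18 no longer did. The sign changed in 108, and in 0 of these did the difference pass the test under either setting. The cause of the changes was not tested. For PR36 against PA36, 0 members were called with median-of-ratios or quantile scaling, a pseudocount of 0.1, no filter or only the genotypes compared, and 0 to 2 when leaving out 1 library. For (G4C2)36 against PA36, 1 was called with only the genotypes compared (Tk), and 0 to 2 when leaving out 1 library. For UPF1 RNAi against PA36, 0 were called with a pseudocount of 0.1, no filter or only the genotypes compared, 2 with the robust option (Eh and CCHa2), and 0 to 2 when leaving out 1 library. For PR36 against (G4C2)36, 0 were called with a pseudocount of 0.1 or no filter, and 0 to 2 when leaving out 1 library. For PR36 against UPF1 RNAi, 0 to 1 were called when leaving out 1 library. For (G4C2)36 against UPF1 RNAi, 0 were called with a pseudocount of 0.1, 2 with the robust option, 3 with only the genotypes compared, and 0 to 3 when leaving out 1 library. Without PA36 replicate 1 and PR36 replicate 1 together, the counts were 2 for PR36, 4 for (G4C2)36 and 3 for UPF1 RNAi, each against PA36, 2 for PR36 against (G4C2)36 and 3 for (G4C2)36 against UPF1 RNAi. That fit takes its spread from the (G4C2)36 libraries alone, and calls over all genes rose in each of these comparisons as well. The added member calls are therefore not particular to peptide precursors. Over all genes, the main fit called 18 for PR36 against PA36. This was 16 with either scaling, 13 with a pseudocount of 0.1, 7 with no filter and 17 with only the genotypes compared. For (G4C2)36 against PA36 it called 36, and 90 with only the genotypes compared. For UPF1 RNAi against PA36 it called 58. That became 59 with a pseudocount of 0.1, 79 with no filter, 3 with only the genotypes compared and 87 with the robust option. For PR36 against (G4C2)36 it called 22, then 15 with a pseudocount of 0.1 and 28 with no filter.

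The members' median log2 fold change in UPF1 RNAi against PA36 was 0.36 with median-of-ratios scaling, 0.37 with quantile scaling, 0.40 with no filter, 0.41 without the 2 libraries together, and 0.41 to 0.47 when leaving out 1 library. The median of all genes moved with scaling, by median of ratios to 0.01 in PR36, (G4C2)36 and UPF1 RNAi. Separation counts were recomputed after seeing the data. Members below PA36 in PR36 numbered 9 with median-of-ratios scaling (15.5% of all genes), 8 with quantile scaling (14.5%), 13 without the 2 libraries together (32.4%) and 6 to 14 when leaving out 1 library (12.6% to 24.9%). Those above numbered 16 without the 2 libraries (67.3%) and 8 to 13 when leaving out 1 (36.4% to 59.6%). In (G4C2)36, 8 members were below with either scaling (19.2% and 20.3%) and 7 to 12 when leaving out 1 library (11.4% to 36.2%), while 12 were above without the 2 libraries (32.9%) and 8 to 18 when leaving out 1 (27.4% to 68.8%). With a pseudocount of 0.1, 0 member transcripts were called in UPF1 RNAi.

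Over 9287 genes, replicate numbers showed little pairing: the deviations of same-numbered libraries correlated at 0.0975 (PA36 and PR36), -0.0740 (PA36 and (G4C2)36) and -0.0772 (PR36 and (G4C2)36). Heat shock transcripts were high in replicate 1 of both PR36 and PA36, so pairing in part of the genes was not tested by this. With the replicate number as a block, the calls in the other comparisons stayed at the same counts, (G4C2)36 against UPF1 RNAi had 2 calls (Eh and Nplp3), and the median in UPF1 RNAi against PA36 was 0.42. Depth is unknown, and 1 library of UPF1 RNAi limits every statement on that genotype.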
